A study of Mus musculus with 28 samples.

Results

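The tail Slc1a3 comparison set cells marked through Slc1a3-driven Cre against the total epidermal cells of the same mouse line. It covered 4 of the 28 libraries of the series, 2 of Slc1a3+ cells and 2 of total interfollicular epidermis (IFE), chosen by line, site and cell fraction and not by any measured value. The IFE is the layered epithelium between hair follicles. Both fractions came from tail skin of mice that the labels describe as WT and as carrying Slc1a3CreER and RosatdTomato. All of these mice received tamoxifen at 100 ug/ml on 5 consecutive days between postnatal days 30 and 34. The harvest fell on postnatal day 49, 2 weeks after the last dose and in telogen, when hair follicles rest. Also used for reference were tail Dlx1+ cells (line Dlx1CreER), tail Aspm+ cells (line AspmCreER) and back Slc1a3+ cells, each with the total IFE of its own line and site and with the same reporter, tamoxifen and harvest day. The 2 tail reference lines hold 4 libraries each and the back Slc1a3 line holds 6.

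CreER is a Cre recombinase that acts once tamoxifen is bound. It removes a stop sequence before the tdTomato reporter at the Rosa locus, so a marked cell and all its daughters stay red whatever they express later. Slc1a3+ therefore names a lineage started at the time of tamoxifen, not cells selected for their present Slc1a3 level. Tail epidermis is patterned into scales, which harden through keratins shared with hair and nail, and into interscales, which differentiate like the skin of the back. Lineage tracing has linked Slc1a3-driven label mainly to scales and Dlx1-driven label mainly to interscales. The labels do not say how the cells were gated, whether the total fraction still held red cells, whether libraries came from separate animals, or how the CreER allele was built. The p-values below therefore set changes against the spread between libraries, which may be technical. In the main fit that spread is estimated over all 28 libraries of the series, not from the 4 tail Slc1a3 libraries alone.

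Levels are CPM, read counts scaled to library size but not to gene length, so they are compared between libraries and not between genes. Values of replicate 1 come before those of replicate 2, and Slc1a3+ before total where 2 pairs of values are set against each other. Changes are log2 fold changes of Slc1a3+ cells over total, tested by quasi-likelihood in edgeR and given with a standard error (SE). A gene passed when its Benjamini-Hochberg adjusted p over the 17493 genes tested was under 0.05, and "rose" and "fell" are used for such genes. The 2 Slc1a3+ libraries held 19054073 and 18244024 counts and the 2 total libraries 15279655 and 27057385. The series ran from 7738262 to 37670589 counts, and its shallowest library, a back Slc1a3 total, also stood apart by its 14436 genes with a count. Mitochondrial counts made up between 0.974% and 1.40% of the 4 tail Slc1a3 libraries. Same-numbered Slc1a3+ and total libraries were also tested as pairs, and such results are called paired. The library kit does not keep strand, so the count of a gene that overlaps another is uncertain. Of the genes described here these are Lrig1 (with Slc25a26), Stra6 (Ccdc33), Gt(ROSA)26Sor (Thumpd3), Dlx1 (Dlx1as), Ptger4 (Ttc33), Arhgap44 (Elac2), Ccl27a and Il11ra1 (each other, the latter also further genes), Pkd1l3 (Ist1), Dusp1 (Ergic1), Col4a1 and Col4a2 (each other), and, with unnamed or predicted genes, Adh7, Krt80, Krt10, Il34, Bmp4, Wnt7b, Gas1, Stard5 and Fgfr3. In bulk RNA, fewer cells of a type in a fraction and less of a transcript per cell cannot be told apart.

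Slc1a3 (ENSMUSG00000005360, GRCm38 chromosome 15, 8634124 to 8710764), a transporter that takes up glutamate and aspartate, measured 20.4 and 17.6 CPM in the Slc1a3+ libraries and 8.47 and 7.55 CPM in the total libraries. Both Slc1a3+ libraries lay above both totals, and the change passed (log2 1.25, SE 0.273, adjusted p = 0.0279). Marked cells thus held more of the transcript of the label's own driver gene 2 weeks after tamoxifen. Leaving out any 1 of the 4 libraries ended the call (adjusted p from 0.1 to 0.333), with log2 changes from 1.15 to 1.36. Gt(ROSA)26Sor, the transcript of the reporter's locus, measured 19.2 and 18.8 CPM in the Slc1a3+ libraries and 13.6 and 13.2 CPM in the total libraries, without passing (log2 0.50, adjusted p = 1). The driver genes of the other tail lines did not pass. Dlx1, a homeobox gene, measured 12.1 and 10.3 CPM against 8.12 and 8.93 CPM, and Aspm, a spindle protein of dividing cells, 14 and 15.8 CPM against 16.2 and 20.5 CPM (Slc1a3+ against total in both). The basal keratin genes were present in all 4 libraries. Krt14 measured 57058 and 52566 CPM in the Slc1a3+ libraries and 45174 and 42533 CPM in the total libraries, and Krt5 52660 and 51228 CPM against 42530 and 42652 CPM, and neither passed (log2 0.32 and 0.29, adjusted p = 1 for both).

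Most of the change was loss. Of 17493 genes 90 passed (0.514%), 87 lower in Slc1a3+ cells (0.497%) and 3 higher (0.0171%), while 1004 had an unadjusted p under 0.05. Over all genes tested the log2 change was below 0 in 48.8% and the median was 0. All 87 genes that fell had both Slc1a3+ libraries below both totals, against 15.9% of all genes tested, a separation that passing with 2 libraries a side makes likely. Of the 87 genes 86 also passed paired, in a fit of the same libraries. Their median gene kept 21.7% of its total level in Slc1a3+ cells. Under 10% of the total level remained for 19 genes, 10% to 25% for 34, 25% to 50% for 29, and more than 50% for 5 (Pros1, Atp13a2, Clic4, Stard5 and Slc6a2). Paired, 261 genes passed (1.49%), 237 lower (1.35%) and 24 higher (0.137%). Unpaired, leaving out a Slc1a3+ library left 29 (replicate 1) or 32 (replicate 2) calls and leaving out a total library 49 (replicate 1) or 51 (replicate 2), so each of the 4 libraries moved the number of calls by more than 1.5 times. Of the 90 calls 70 were lost without at least 1 library.

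**Figure D1:**
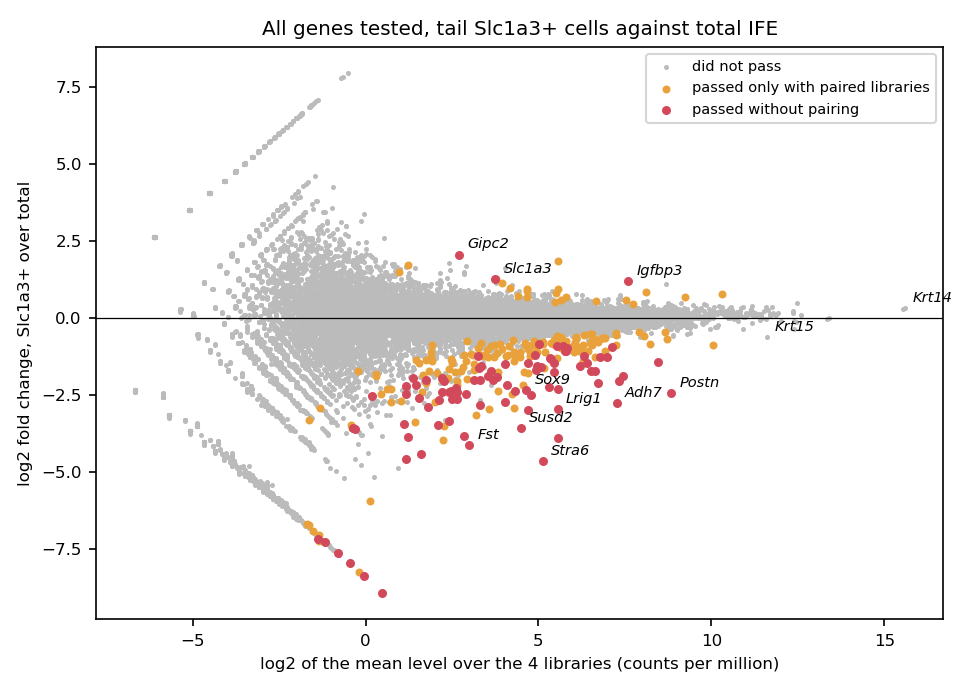
Change in Slc1a3+ cells over total (vertical axis, log2) against the mean level over the 4 tail libraries (horizontal axis, log2 CPM) for the 17131 genes of the 17493 tested that had a count in them. Red points passed without pairing and lie mostly below 0, orange points passed paired but not unpaired, and the lower diagonal lines are genes with 0 counts in both Slc1a3+ libraries, whose fitted change is no measured size.

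Of the calls 20 held without each of the 4 libraries, and 16 of them also passed under the other 9 alternatives tried, such as DESeq2's test or a fit of the tail libraries alone. Those 16 were Susd2, Epb41l2, Il20ra, Fst, Dpysl3, Rasgrp1, Clca3a2, Lrig1, Il34, Krt80, Esyt3, Ptger4, Mill1, Ntrk2, Adh7 and Col23a1, all lower in Slc1a3+ cells. Man1a, Srgap1, Atp10a and Arhgap44 passed without each library but not under all other settings. Susd2, a membrane protein with a sushi domain, had the lowest adjusted p of all genes. It measured 3.84 and 3.03 CPM in the Slc1a3+ libraries and 43 and 39.9 CPM in the total libraries (log2 -3.59, SE 0.214, adjusted p = 2.58e-10). The replicates of each fraction lay close together and far from the other fraction. Ntrk2, a neurotrophin receptor, measured 58.2 and 65.3 CPM in the Slc1a3+ libraries and 237 and 282 CPM in the total libraries (log2 -2.07, adjusted p = 3.58e-04). Mill1, a protein related to MHC class I, measured 6.81 and 5.99 CPM against 31.5 and 35.2 CPM, and Esyt3, an extended synaptotagmin, 6.11 and 5.46 CPM against 18.9 and 25.6 CPM (Slc1a3+ against total in both). These 3, Ptger4, Man1a, Atp10a and Arhgap44 were named for their stability, after their values were seen.

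Lrig1, a membrane protein that restrains signalling from the EGF receptor and marks stem cells of the upper follicle, fell in Slc1a3+ cells. It measured 9.66 and 11.5 CPM in the Slc1a3+ libraries and 79.2 and 87.4 CPM in the total libraries (log2 -2.98, SE 0.419, adjusted p = 3.58e-04). Sox9, a transcription factor of follicle stem cells, measured 10.1 and 6.17 CPM in the Slc1a3+ libraries and 46.8 and 36.9 CPM in the total libraries (log2 -2.36, SE 0.392, adjusted p = 0.00214). For both genes every Slc1a3+ library was below every total library. The markers given for this comparison thus moved in opposite directions, Slc1a3 up and Lrig1 and Sox9 down. The reference populations shared these directions over their own totals, as given below. Lrig1 passed in all 4 fits that left out 1 library, and Sox9 in 3, missing the threshold without Slc1a3+ replicate 2 (adjusted p = 0.118).

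The promoters of 3 genes are shown because the results turn on these genes: Lrig1 and Il20ra were among the 16 most stable losses, and Igfbp3 was 1 of the 3 rises. Each is the 250 bases before the annotated start in RefSeq (GRCm38.p6), on the gene's own strand. Capitals mark matches, on either strand, to 6 motifs. A GC box is searched as GGGCGG and a promoter CCAAT box by those letters. For a TATA box the search used TATAAA, for the AP-1 factors TGANTCA, for SOX factors ACAANG, and for the Wnt effectors TCF and LEF it used CTTTGA. Lrig1 lies at chr6:94700146-94700395 on the minus strand and holds 2 GC boxes and 1 CCAAT box, Il20ra at chr10:19712337-19712586 on the plus strand with 1 AP-1 match, and Igfbp3 at chr11:7213924-7214173 on the minus strand with no match to the 6 motifs.
Lrig1: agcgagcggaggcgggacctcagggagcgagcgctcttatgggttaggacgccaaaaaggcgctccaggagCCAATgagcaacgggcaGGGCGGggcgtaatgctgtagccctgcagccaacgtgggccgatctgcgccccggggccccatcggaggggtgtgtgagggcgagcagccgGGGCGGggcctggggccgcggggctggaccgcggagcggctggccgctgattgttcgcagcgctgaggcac
Il20ra: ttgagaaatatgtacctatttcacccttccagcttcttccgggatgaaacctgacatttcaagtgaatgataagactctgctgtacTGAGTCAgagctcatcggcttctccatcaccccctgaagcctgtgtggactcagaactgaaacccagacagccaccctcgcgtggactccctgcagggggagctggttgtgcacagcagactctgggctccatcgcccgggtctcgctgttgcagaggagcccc
Igfbp3: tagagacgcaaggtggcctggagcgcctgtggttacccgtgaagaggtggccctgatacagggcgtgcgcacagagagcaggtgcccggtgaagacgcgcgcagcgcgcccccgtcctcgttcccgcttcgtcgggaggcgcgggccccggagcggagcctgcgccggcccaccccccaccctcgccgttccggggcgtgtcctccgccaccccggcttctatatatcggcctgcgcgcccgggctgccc

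The same motifs were counted in 100 windows of 66 of the genes that fell and in all 14711 windows of 11555 tested genes with an entry. AP-1 letters stood in 9% of the windows of genes that fell and in 4.98% of all, SOX letters in 36% and 29.4%, TCF and LEF letters in 16% and 10.8%, TATA boxes in 10% and 7.08%, CCAAT boxes in 35% and 34.9%, and GC boxes in 47% and 54.7%. A match describes letters in these windows and is no measure of binding.

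Several hair follicle genes were among the losses, with different counts along the follicle. The gene lists here and below were chosen with earlier results of these data known, so their counts and medians describe and do not test. Over all genes tested 48.8% were negative, 0.497% fell and 0.0171% rose. Paired, 1.35% of all genes fell and 0.137% rose. The bulge and germ at the base of the resting follicle hold its stem cells. Of the 29 genes listed for them 28 were tested, 25 were negative, 6 fell and 0 rose, with a median change of -1.31 beside 0 over all genes. Paired, 12 fell, and 11 with DESeq2 unpaired, which called 181 of all 17493 genes lower. The list's median was -0.80 in tail Dlx1+, -0.47 in tail Aspm+ and -0.38 in back Slc1a3+ cells, each over their own total. The list's summed level was 3624 and 4119 CPM in Slc1a3+ cells and 6341 and 6396 CPM in total. Fst, which binds and blocks activin, measured 1.05 and 0.653 CPM in the Slc1a3+ libraries and 15.3 and 15 CPM in the total libraries (log2 -4.14, adjusted p = 3.32e-04). Postn, the matrix protein periostin, measured 118 and 161 CPM against 785 and 755 CPM (log2 -2.46, SE 0.539, adjusted p = 0.0350). Sostdc1, an inhibitor of BMP and Wnt ligands, measured 79.6 and 68.7 CPM against 314 and 237 CPM, Col6a1, a collagen VI chain, 30.1 and 44 CPM against 98.7 and 122 CPM, and Ltbp1, which holds latent TGF-beta in the matrix, 4.83 and 6.65 CPM against 20.04 and 18.2 CPM (Slc1a3+ against total, all 3 fell).

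Other bulge genes lay lower without passing in the unpaired test. Lhx2, a LIM homeobox factor of bulge cells, measured 2.56 and 2.26 CPM against 9.09 and 10.9 CPM and passed paired (adjusted p = 0.109, paired 0.0261). Cd34, a bulge surface protein, measured 1.98 and 3.44 CPM against 16.9 and 17.5 CPM and Lgr5, a receptor of the germ, 0.175 and 0.356 CPM against 1.31 and 3.19 CPM. The fractions were separated for both, and neither passed in the main fit or the paired fit of edgeR (unpaired adjusted p = 0.180 and 0.644). Of the 13 alternatives 6 called Lhx2 and 6 called Cd34, DESeq2's test among them for both, and 0 called Lgr5. Lhx2, Cd34 and Lgr5 were named after their values were seen. Krt15, a keratin of bulge and basal cells, measured 2245 and 2630 CPM in the Slc1a3+ libraries and 3727 and 3819 CPM in the total libraries, a log2 change of -0.63 that passed in neither fit (adjusted p = 0.191, paired 0.0622). Gas1, a hedgehog co-receptor on the same list, lay on the other side at 522 and 497 CPM against 427 and 367 CPM (log2 0.36, adjusted p = 0.762).

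Above the bulge, the junctional zone, isthmus and infundibulum gave a smaller median change. Of 15 genes of the upper follicle 11 were negative and 3 fell (Lrig1, Krt80 and Aldh3a1), with a median of -0.86, and 6 fell paired. In tail Dlx1+ cells over their total the same list had a deeper median, -1.29. In tail Aspm+ and back Slc1a3+ cells it was -0.19 and -0.26. Aldh3a1, an aldehyde dehydrogenase, measured 209 and 165 CPM in the Slc1a3+ libraries and 623 and 396 CPM in the total libraries (log2 -1.45, adjusted p = 0.0234). Krt17, an appendage and stress keratin, measured 202 and 219.7 CPM against 407 and 361 CPM and fell paired (adjusted p = 0.593, paired 0.0109). Gata6, a factor of the upper follicle duct, measured 1.34 and 2.31 CPM against 10.9 and 8.26 CPM and likewise fell paired (adjusted p = 0.132, paired 0.00129, named after its value was seen). Of the 13 alternatives 3 called Krt17 and 6 called Gata6, 2 of them paired for each. Krt79, a keratin of the duct, measured 171 and 215 CPM against 273 and 326 CPM without passing in either fit (log2 -0.63). The root sheath list had 12 negative of 17 tested and a median of -0.26 (-0.27 with genes at 0 counts set to their bound). Krt6a, a keratin of the companion layer and of wounds, was its 1 member that fell unpaired (2 paired and with DESeq2, Barx2 being the other) and measured 35.6 and 48.7 CPM in the Slc1a3+ libraries and 129 and 152 CPM in the total libraries (log2 -1.74, adjusted p = 0.0269).

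Of 19 genes of the sebaceous gland 10 were negative and 0 passed with edgeR or DESeq2 unpaired, with a median of -0.17. Paired, 1 fell, Acsbg1, an enzyme that activates long-chain fatty acids (37.9 and 55.1 CPM against 90.5 and 107 CPM, adjusted p = 0.281, paired 7.30e-04), also the member with an unadjusted p under 0.05. Their summed level was 1320 and 1613 CPM in Slc1a3+ cells and 1390 and 1648 CPM in total. Genes of the hair matrix and shaft, which build the growing hair, lay on the other side. Of 11 tested members 10 were positive with a median of 0.70, although 0 rose with edgeR and 1, Bmp4, with DESeq2 unpaired (3 at an unadjusted p under 0.05). Paired, 2 rose, namely Bmp4 and Foxn1. This list had medians of 0.42 in tail Dlx1+, 0.08 in tail Aspm+ and 0.20 in back Slc1a3+ cells. Foxn1, a factor that drives differentiation in hair and epidermis, measured 30.7 and 35.2 CPM in the Slc1a3+ libraries and 14 and 22.1 CPM in the total libraries (log2 0.86, adjusted p = 0.602, paired 0.0491). Dlx3, Msx2 and Hoxc13, factors of hair and other appendages, measured 46.9 and 60.8 CPM against 23.4 and 35.5 CPM, 49.5 and 50.2 CPM against 29.95 and 29.6 CPM and 90.4 and 113 CPM against 72.4 and 76.7 CPM in that order, each with both Slc1a3+ libraries above both totals, like 15.4% of all genes tested, and no call (adjusted p = 1, 0.643 and 1).

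**Figure D2:**
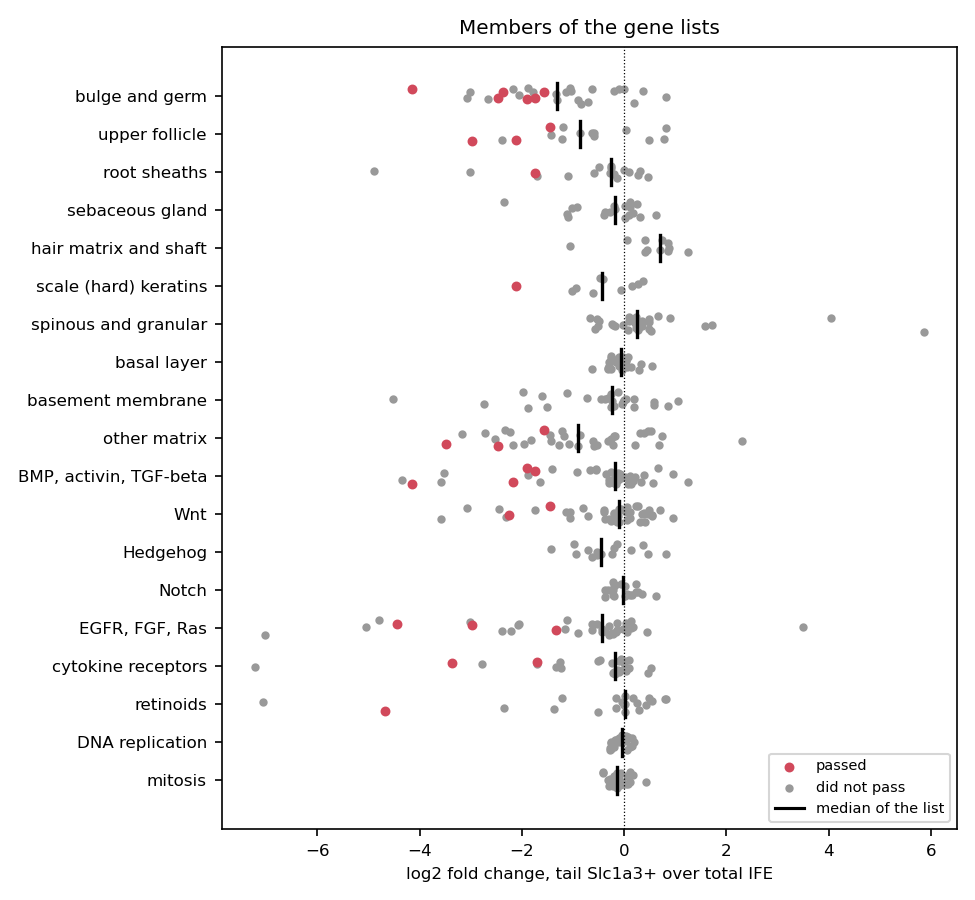
Log2 change in Slc1a3+ cells over total (horizontal axis) of each tested member of 19 gene lists, with the list's median as a vertical bar and members that passed without pairing in red. The bulge and germ list sits furthest to the left with a median of -1.31, the sebaceous, Notch and DNA replication lists centre near 0, and the hair matrix and shaft list lies to the right at 0.70. Points beyond -5 belong to genes with 0 counts in both Slc1a3+ libraries.

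Keratins that harden tail scales varied between replicates. Krt36 measured 2130 and 3082 CPM in the Slc1a3+ libraries and 1629 and 2381 CPM in the total libraries. The replicates of each fraction thus differed by more than the fractions did. Its change did not pass (log2 0.38, SE 1.32, adjusted p = 1). That SE rests on the spread of all 28 libraries, among them back Slc1a3+ cells with a mean of 11.6 CPM (SD 20) of Krt36. Krt84 measured 1823 and 3113 CPM against 1476 and 2594 CPM, again with overlapping fractions. Paired, the SE was 0.405 for Krt36 and 0.394 for Krt84, and neither passed (adjusted p = 0.922 and 0.960). Of 10 hard keratins and scale genes tested 9 did not pass. The 1 that fell was Krt80, a keratin shared by hair, nail and tongue, which also stands on the upper follicle list. It measured 35.2 and 43.3 CPM in the Slc1a3+ libraries and 164 and 176 CPM in the total libraries (log2 -2.12, SE 0.180, adjusted p = 2.24e-07). Krt7, a keratin of simple and glandular epithelia, measured 8.03 and 8.55 CPM against 58.6 and 36.1 CPM (log2 -2.51, adjusted p = 0.00512).

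Genes of the layers of the IFE itself had medians near 0. Of 24 basal layer genes 0 passed with edgeR in either fit and 1, Krt15, fell with DESeq2 (1 lower and 0 higher at an unadjusted p under 0.05), and their median was -0.07. Of 34 spinous and granular genes 0 passed with edgeR or DESeq2 (2 higher at an unadjusted p under 0.05), although 25 were positive and the median was 0.26 (0.25 with genes at 0 counts at their bound). Krt10, a keratin of the first suprabasal layers, measured 6566 and 6818 CPM in the Slc1a3+ libraries and 4503 and 5076 CPM in the total libraries (log2 0.48, SE 0.231, adjusted p = 0.858). Krt1, its partner, measured 1985 and 2141 CPM against 1661 and 1688 CPM (adjusted p = 1), and Krt2, a keratin of the upper layers, 5437 and 5895 CPM against 4189 and 5461 CPM (adjusted p = 1), Slc1a3+ against total. The Slc1a3+ libraries were on the higher side for all 3, but the Krt2 fractions overlapped. Of 25 DNA replication genes and 30 genes of G2 and mitosis 0 passed with edgeR in either fit or with DESeq2, and 0 had an unadjusted p under 0.05, with medians of -0.05 and -0.13. Mki67, a marker of cycling cells, measured 59.6 and 73.4 CPM in the Slc1a3+ libraries and 56.3 and 109.7 CPM in the total libraries, with overlapping fractions (log2 -0.32, SE 0.663, adjusted p = 1).

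Signalling genes that fell were a few members of some pathways. In the BMP, activin and TGF-beta pathway, whose ligands hold follicle stem cells at rest or push keratinocytes to stop dividing, 4 of 43 tested members fell and 0 rose. The pathway's median was -0.17. Paired, 7 fell, among them also Ltbp2, a relative of Ltbp1, and the receptor Bmpr1b (paired adjusted p = 0.0398 and 0.00443, named after their values were seen). Ltbp2 had means of 0.768 CPM in Slc1a3+ cells and 8.84 in total, and Bmpr1b of 0.119 and 1.41 CPM. The Slc1a3+ mean of Bmpr1b lay under the 0.176 CPM that 3 counts are worth there. The 4 were extracellular regulators or ligand subunits. Fst, Sostdc1 and Ltbp1 were described above, and Inhbb, the beta B subunit of activin and inhibin, measured 5.18 and 7.06 CPM in the Slc1a3+ libraries and 30.7 and 24.6 CPM in the total libraries (log2 -2.17, SE 0.431, adjusted p = 0.0122). Bmp4, a ligand, measured 22 and 16.9 CPM in the Slc1a3+ libraries and 6.54 and 9.68 CPM in the total libraries, and both Slc1a3+ libraries lay above both totals. It just missed the threshold without pairing (log2 1.25, SE 0.294, adjusted p = 0.0552) and rose paired (0.00145). The receptor Bmpr1a measured 129.6 and 145 CPM against 112 and 137 CPM and did not pass (adjusted p = 1).

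In the Wnt pathway, which drives follicle stem cell activation and basal cell renewal, 2 of 44 tested members fell and 0 rose (5 fell and 1 rose with DESeq2), with a median of -0.11. Fzd7, a Wnt receptor, measured 13.9 and 13.7 CPM in the Slc1a3+ libraries and 62.7 and 69.1 CPM in the total libraries (log2 -2.26, SE 0.414, adjusted p = 0.00576). Apcdd1, a membrane inhibitor of Wnt and BMP signalling, measured 17.9 and 28.7 CPM against 58.5 and 69.6 CPM (log2 -1.46, adjusted p = 0.0173). Paired, the inhibitors Dkk3 and Sfrp1 and the receptor Fzd3 fell as well, whereas 2 ligands rose. Wnt6 measured 27.1 and 21.1 CPM against 14.5 and 10.3 CPM (log2 0.96, adjusted p = 0.0935, paired 0.0155) and Wnt7b 113 and 128 CPM against 77.6 and 87.3 CPM (log2 0.55, adjusted p = 0.475, paired 0.00804). Wnt4, another ligand, measured 545 and 444 CPM against 392 and 324 CPM and did not pass in either fit (adjusted p = 0.753). Dkk3, Sfrp1, Fzd3 and Wnt7b were named after their values were seen.

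The EGF receptor, FGF and Ras list had 3 members that fell of 37 tested, and 28 were negative, with a median of -0.43 (-0.38 with genes at 0 counts at their bound). Besides Lrig1 these were Rasgrp1 and Fgfr1. Paired, 6 fell, the others being Lrig3, a relative of Lrig1, and Spry1 and Dusp6, inhibitors of this signalling (paired adjusted p = 0.0147, 0.0212 and 0.00546, named after their values were seen). Rasgrp1, an exchange factor that loads Ras with GTP, measured 0.349 and 0.178 CPM in the Slc1a3+ libraries and 6.47 and 5.27 CPM in the total libraries (log2 -4.43, SE 0.534, adjusted p = 5.38e-05). Fgfr1, an FGF receptor, measured 24.2 and 22.1 CPM in the Slc1a3+ libraries and 56.7 and 59.3 CPM in the total libraries (log2 -1.32, SE 0.273, adjusted p = 0.0173). Its relative Fgfr3 measured 299 and 342 CPM against 328 and 375 CPM with overlapping fractions (adjusted p = 1). Unpaired, edgeR called 0 of 15 tested hedgehog genes (4 at an unadjusted p under 0.05, and Cdon alone with DESeq2) and 0 of 20 Notch genes (0 at an unadjusted p under 0.05, 0 with DESeq2), with medians of -0.45 and -0.02. Paired, 2 hedgehog co-receptors fell, Boc (47.4 and 60.01 CPM against 75.5 and 89.6 CPM, adjusted p = 0.863, paired 0.0119) and Cdon (28.3 and 41.5 CPM against 55.3 and 81.5 CPM, adjusted p = 0.0826, paired 0.00133). Cdon was named after its value was seen.

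Cytokine genes gave some of the most stable calls. Il20ra, a receptor chain for interleukins 20, 19 and 24, measured 0.873 and 1.01 CPM in the Slc1a3+ libraries and 8.95 and 10.5 CPM in the total libraries (log2 -3.37, SE 0.304, adjusted p = 4.88e-07). Its partner chain Il20rb measured 249 and 247 CPM in the Slc1a3+ libraries and 253 and 267 CPM in the total libraries, a log2 change of -0.07 (adjusted p = 1). Il34, a ligand of the colony stimulating factor 1 receptor on which Langerhans cells depend, measured 15.8 and 13.1 CPM in the Slc1a3+ libraries and 48.7 and 45 CPM in the total libraries (log2 -1.70, SE 0.234, adjusted p = 3.10e-04). Of the 27 tested members of the cytokine receptor list these 2 fell and 0 rose. Paired, 4 fell, the others being the receptor chains Lifr and Il11ra1 (paired adjusted p = 0.0139 and 0.00106, named after their values were seen). Outside the list, the chemokine genes Cxcl12 (1.86 and 1.31 CPM against 9.43 and 10.2 CPM, log2 -2.63) and Ccl27a (2.50 and 4.45 CPM against 14.2 and 14.4 CPM, log2 -2.04, chosen after its values were seen) fell too, with adjusted p of 0.00352 and 0.00663.

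Enzymes and receptors of retinoids, alcohols and lipid mediators were among the losses. Stra6, the receptor that brings retinol into cells, measured 2.50 and 2.79 CPM in the Slc1a3+ libraries and 71.3 and 63.6 CPM in the total libraries (log2 -4.67, SE 0.837, adjusted p = 0.00643). Both Slc1a3+ libraries lay far below both totals. It was the only member of 21 tested retinoid genes to fall with edgeR unpaired (2 fell paired and with DESeq2), and the median of these genes was 0.01. Adh7, an alcohol dehydrogenase that oxidises retinol and ethanol, measured 49.99 and 28 CPM in the Slc1a3+ libraries and 259 and 275 CPM in the total libraries (log2 -2.78, SE 0.314, adjusted p = 2.77e-05). Alox12e, an epidermal lipoxygenase, measured 4.36 and 7.18 CPM in the Slc1a3+ libraries and 38.5 and 53 CPM in the total libraries (log2 -2.99, SE 0.529, adjusted p = 0.00512), the 1 of 22 tested lipoxygenase and barrier genes that fell. In the prostaglandin E2 pathway Ptges, the synthase, and Ptger4, a receptor, fell together, measuring 18.6 and 12.5 CPM against 45.8 and 46.8 CPM and 3.78 and 4.10 CPM against 13.2 and 18.7 CPM (log2 -1.57 and -2.02, adjusted p = 6.58e-04 and 3.05e-05). This pair was chosen after the values were seen.

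Insulin-like growth factor genes moved in both directions. Igfbp3, a binding protein that carries and restrains insulin-like growth factors, measured 306 and 231 CPM in the Slc1a3+ libraries and 129.7 and 106 CPM in the total libraries. It rose, with both Slc1a3+ libraries above both totals (log2 1.19, SE 0.242, adjusted p = 0.0156). Leaving out any 1 of the 4 libraries ended the call (adjusted p from 0.0533 to 0.382). Pappa, a protease that cuts some members of the binding protein family and frees the factors, measured 1.28 and 0.594 CPM in the Slc1a3+ libraries and 11.3 and 15.6 CPM in the total libraries. It fell (log2 -3.84, SE 0.721, adjusted p = 0.00728). Igfbp2, a relative of Igfbp3, measured 609 and 517 CPM against 298 and 228 CPM, and its log2 change of 1.10 (SE 0.544) passed in neither fit (adjusted p = 0.912, paired 0.584). The remaining 12 of 14 tested members, Igfbp2 among them, did not pass.

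The third rise without pairing was Gipc2, a PDZ domain protein, at 8.67 and 12.2 CPM in the Slc1a3+ libraries and 1.10 and 3.82 CPM in the total libraries (log2 2.05, SE 0.433, adjusted p = 0.0205). The total libraries differed from each other by a larger ratio than the Slc1a3+ libraries did, and the call held only without total replicate 2. Paired, 24 genes rose, among them H19, an imprinted noncoding RNA, at 91 and 56 CPM in the Slc1a3+ libraries and 26 and 15.6 CPM in the total libraries (log2 1.83, adjusted p = 0.655, paired 0.0119). Npr3, a clearance receptor for natriuretic peptides, measured 16.5 and 25.7 CPM against 8.33 and 10.7 CPM, Nrg2, a ligand of ErbB receptors, 36 and 30.4 CPM against 21.4 and 13.5 CPM, and Olig1, a basic helix-loop-helix factor, 61.7 and 62.8 CPM against 27.7 and 37.2 CPM (paired adjusted p = 0.00351, 0.0180 and 0.0109). For these 4 both Slc1a3+ libraries lay above both totals. Without pairing none of the 4 passed (adjusted p = 0.655, 0.224, 0.159 and 0.419).

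**Figure D3:**
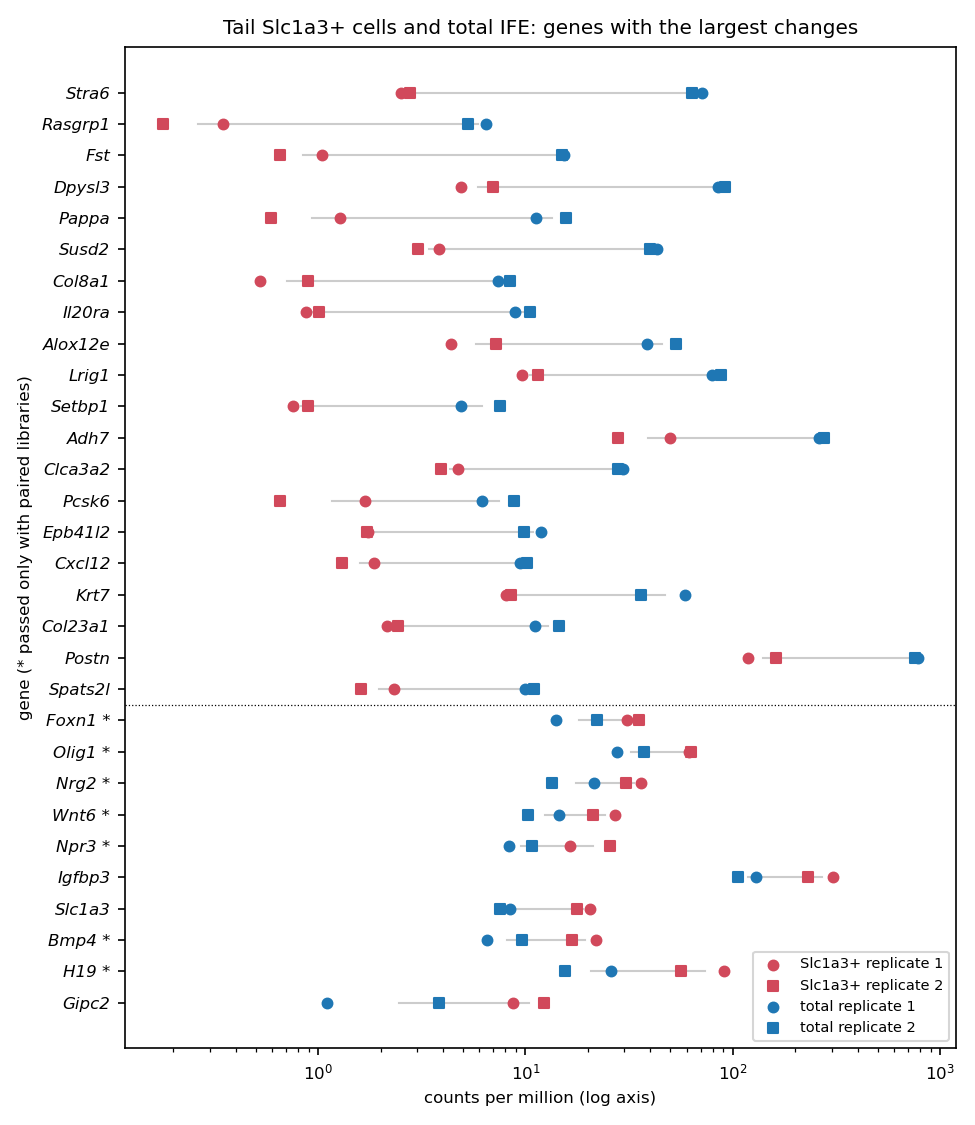
Levels in CPM (log axis) of the 20 largest falls and 10 largest rises in each of the 4 tail Slc1a3 libraries, red for Slc1a3+ and blue for total, circles for replicate 1 and squares for replicate 2, with a grey line between the means. Stra6 stands at 2.50 and 2.79 in red and 71.3 and 63.6 in blue, and among the rises, below the dotted line, those marked with an asterisk passed paired but not unpaired.

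Matrix and cytoskeletal genes completed the named losses. Of 35 tested matrix genes outside the basement membrane 27 were negative and 3 fell, Postn, Col6a1 and Col8a1, with a median of -0.90, and 8 fell paired and 6 with DESeq2. Postn and Col6a1 also stand on the bulge list. Col8a1, a short-chain collagen, measured 0.524 and 0.890 CPM in the Slc1a3+ libraries and 7.37 and 8.46 CPM in the total libraries (log2 -3.48, SE 0.707, adjusted p = 0.0156). Col23a1, a transmembrane collagen on neither matrix list, measured 2.15 and 2.43 CPM against 11.2 and 14.4 CPM (log2 -2.48, adjusted p = 1.31e-04). Of 26 tested basement membrane genes 0 fell with edgeR unpaired, 3 with DESeq2 and 3 paired, in both cases the collagen IV chains Col4a1 and Col4a2 and the matrix protein Egfl6 (6 lower at an unadjusted p under 0.05). Dpysl3, a cytoskeletal protein of growing axons, measured 4.89 and 6.94 CPM in the Slc1a3+ libraries and 84.8 and 91.5 CPM in the total libraries (log2 -3.90, SE 0.472, adjusted p = 5.38e-05). Epb41l2, which ties membranes to the spectrin skeleton, measured 1.75 and 1.72 CPM against 11.9 and 9.83 CPM, and the actin regulator Shroom3 4.31 and 5.88 CPM against 11.9 and 18.4 CPM (log2 -2.64 and -1.58). Kif26b and Arhgef17 were the other 2 members that fell of 27 tested guidance and cytoskeletal genes.

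The remaining genes of the 20 largest falls had more varied roles. Setbp1, a nuclear protein that binds SET, measured 0.757 and 0.890 CPM against 4.89 and 7.51 CPM, and Pcsk6, a protease that activates TGF-beta family ligands, 1.69 and 0.653 CPM against 6.20 and 8.77 CPM. Clca3a2, a secreted protein of the chloride channel accessory family, measured 4.71 and 3.92 CPM in the Slc1a3+ libraries and 29.5 and 27.9 CPM in the total libraries (log2 -2.73, SE 0.388, adjusted p = 3.58e-04), and closely similar genes lie beside it, so its count is uncertain. Spats2l measured 2.33 and 1.603 CPM against 9.91 and 11.1 CPM. All 4 fell, with log2 changes between -2.91 and -2.41. In 6 genes that fell, both Slc1a3+ libraries were at 0 counts. Against a floor of 3 counts per library, and measured from the lower of the 2 total libraries, Greb1 was at least 15.2-fold lower, Rasgrf1 at least 5.58-fold, Pkd1l3 at least 4.68-fold, Slc27a6 at least 4.46-fold, Lpar1 at least 4.24-fold and Cacna2d2 at least 1.56-fold. The higher total alone would give 18-fold for Lpar1 and 7.14-fold for Cacna2d2, and these floors cover counting error only.

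Markers of other cell types mostly did not pass. Of the fibroblast list 1 of 11 tested members fell, Col6a1, which is also on the bulge list, and the list's summed level ran from 141 to 146 CPM in Slc1a3+ cells and from 199 to 214 CPM in total. Col6a1, with means of 37.1 and 110 CPM, had a wider gap than the sums. Of the 11 members 7 were negative and 4 positive. Among the positive were Dcn (means of 32 CPM in Slc1a3+ cells and 23.2 in total) and Thy1 (62 and 56.5 CPM). Pdgfra, a defining fibroblast gene, was at 0 and 0.415 CPM in Slc1a3+ cells and 1.31 and 0.433 CPM in total. Of the Langerhans and myeloid list 1 of 15 fell, Epcam, an adhesion protein that follicle cells also carry (15.4 and 18 CPM against 56.8 and 44.7 CPM), with sums from 124 to 132 CPM in Slc1a3+ cells and from 137 to 155 CPM in total. Epcam had a wider gap than the sums, and of the 15 members 7 were negative and 8 positive. The Langerhans gene Cd207 was at 1.22 and 0.831 CPM and 1.51 and 0.511 CPM. T cell marker sums ran from 54 to 71.8 CPM in Slc1a3+ cells and from 57.1 to 59.4 CPM in total, endothelial and mural sums from 36.8 to 63 CPM in Slc1a3+ cells and from 45.4 to 74.1 CPM in total, and melanocyte sums from 29.2 to 35.9 CPM in Slc1a3+ cells and from 22.6 to 25.8 CPM in total. In these 3 lists 0 members passed with edgeR or DESeq2, and 1, 1 and 0 were lower at an unadjusted p under 0.05. Most of the T cell sum was Thy1, also on the fibroblast list, while Cd3d had means of 0 CPM in Slc1a3+ cells and 0.374 in total. Most of the endothelial and mural sum was Notch3 (46.1 and 53.8 CPM), also on the Notch and spinous lists. Pecam1 on that list was at 1.12 and 0.988 CPM. The Merkel and nerve, muscle, adipocyte and red blood cell lists also had 0 members that passed with either tool (5 of their 24 tested members had an unadjusted p under 0.05), each with sums under 40 CPM in every library. The part of these cells in the results was not tested. Of 21 immediate early genes, a sign of handling stress, 0 passed with edgeR unpaired and 1 fell with DESeq2 and paired, the phosphatase gene Dusp1 (2 lower at an unadjusted p under 0.05), with a median of -0.18.

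To ask whether the losses were shared by other marked populations, the 87 genes that fell were read in 3 comparisons that share no library with this one. In tail Dlx1+ cells against their total 86 of the 87, all but Slc6a2, were negative (49.4% of all genes tested), 59 were lower at an unadjusted p under 0.05 (2.05% of all), and the median change was -0.92. With edgeR 0 of the 17493 genes passed there (446 at an unadjusted p under 0.05), whereas paired 81 passed, 80 of them lower (0.457%), and 32 of the 87 were among those. In tail Aspm+ cells 81 were negative (52.3% of all), 26 were lower at an unadjusted p under 0.05 (1.75%), 0 fell with edgeR (0.00572% of all genes fell there) and 2 paired (0.0343%), and the median was -0.53. In back Slc1a3+ cells 75 were negative (45.5% of all), 30 were lower at an unadjusted p under 0.05 (3.35%), the median was -0.36, and 9 fell (0.0915% of all genes fell there) or, paired, 24 (0.292%). The 9 were Ltbp1, Cacna2d2, Kif26b, Shroom3, Fgfr1, Arhgef17, Sostdc1, Igsf9 and Sox7. In tail Slc1a3+ cells the median of the same 87 genes was -2.21, a value their choice by this comparison makes large.

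The size of the loss was then compared between populations by a test of the difference of the log2 changes, which uses the tail Slc1a3 libraries each time. Against tail Dlx1+ cells 4 genes differed (0.0229% of those tested), all with a deeper loss in Slc1a3+ cells, and 18 did paired (0.103%). The 4 were Susd2, Il20ra, Krt80 and Col23a1. Against tail Aspm+ cells 7 differed (0.04%), all in the same direction, and 35 paired (0.2%). Against back Slc1a3+ cells 16 differed (0.0915%), 15 with a deeper loss in the tail (0.0857%) and 1 with a difference above 0 (0.00572%), and 83 paired (0.474%). Susd2 was at 3.43 CPM (SD 0.576, n = 2) in tail Slc1a3+ cells against 41.4 (SD 2.18, n = 2) in total, but at 41.1 (SD 1.09) and 56.9 (SD 6.32) in tail Dlx1+ cells and their total. In tail Aspm+ cells it was at 35.4 (SD 5.13) against 44.4 (SD 7.77), n = 2 throughout. The difference from Dlx1 was -3.12 (SE 0.276, adjusted p = 9.95e-07).

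Krt80 followed the same course, with 167 (SD 8.83) against 214 CPM (SD 25.6) in the Dlx1 line and 143 (SD 24.1) against 179 CPM (SD 28.8) in the Aspm line, marked cells first and n = 2 in each. Col23a1 was at 16.3 (SD 1.10) and 16.9 CPM (SD 1.84) in the Dlx1 line, so that Dlx1+ cells held about as much as their total, while tail Slc1a3+ cells held 2.29 CPM (SD 0.198) against 12.8 (SD 2.32). Lrig1 was at 64.6 CPM (SD 15.4) in Dlx1+ cells and 157 (SD 58) in their total, a change of -1.29, and the difference of -1.69 (SE 0.550) missed the threshold unpaired and passed paired (adjusted p = 1, paired 1.73e-04). For Sox9 the difference from Dlx1 was -0.85 (SE 0.526) and passed in neither fit (adjusted p = 1, paired 1), and Slc1a3 gave 0.86 (SE 0.379, adjusted p = 1). In tail Dlx1+, tail Aspm+ and back Slc1a3+ cells over their totals Sox9 changed by -1.51, -1.14 and -1.02 and Slc1a3 by 0.38, 0.45 and 0.51. Lrig1 changed by -0.73 in tail Aspm+ and -0.49 in back Slc1a3+ cells. None of these changes passed unpaired. Paired, Sox9 fell in tail Dlx1+ and back Slc1a3+ cells, and Lrig1 in each of these populations. Igfbp3 had a change of 0.54 in Dlx1+ cells, and the difference of 0.64 (SE 0.337) did not pass (adjusted p = 1).

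**Figure D4:**
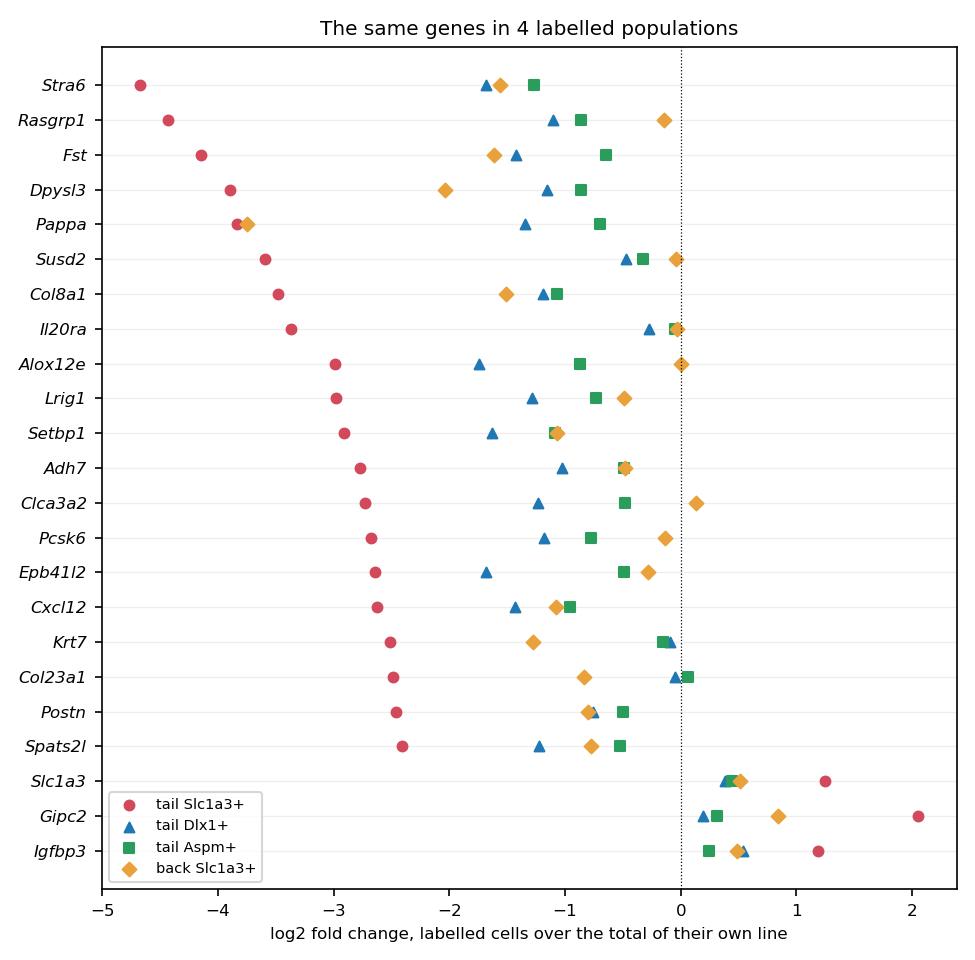
Log2 change of marked cells over the total of their own line (horizontal axis) for the 20 largest falls and the 3 rises of the tail Slc1a3 comparison, in tail Slc1a3+ (red circles), tail Dlx1+ (blue triangles), tail Aspm+ (green squares) and back Slc1a3+ cells (orange diamonds). The red points were chosen to be extreme. For Susd2 and Il20ra the other 3 populations lie between -0.47 and -0.03. Pappa was near the limit of detection in the back, and its orange point has little precision.

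Some genes that differed from the back were far more abundant there. Rasgrp1 was at 115 CPM (SD 16.2, n = 3) in back Slc1a3+ cells against 127 (SD 18.7, n = 3) in back total, a change of -0.14 beside -4.43 in the tail. The difference was -4.29 (SE 0.603, adjusted p = 0.00117). Il20ra was at 129.9 (SD 13.3) and 132 CPM (SD 41.1) and Susd2 at 199.9 (SD 2.99) and 205 CPM (SD 39.3) in the same back groups. Kif26b had a change of -3.06 in the back beside -1.98 in the tail, and the difference of 1.09 (SE 0.569) did not pass (adjusted p = 1). Pappa was at 0.105 (SD 0.118) and 1.44 CPM (SD 1.31) in the back, too low to compare its change with the tail (difference SE 3.31). Fgfr1 changed by -1.32 in the back and -1.32 in the tail. The back Slc1a3 total group contains the library of few genes. Without it the count of genes that differed from the back was 20.

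**Figure D5:**
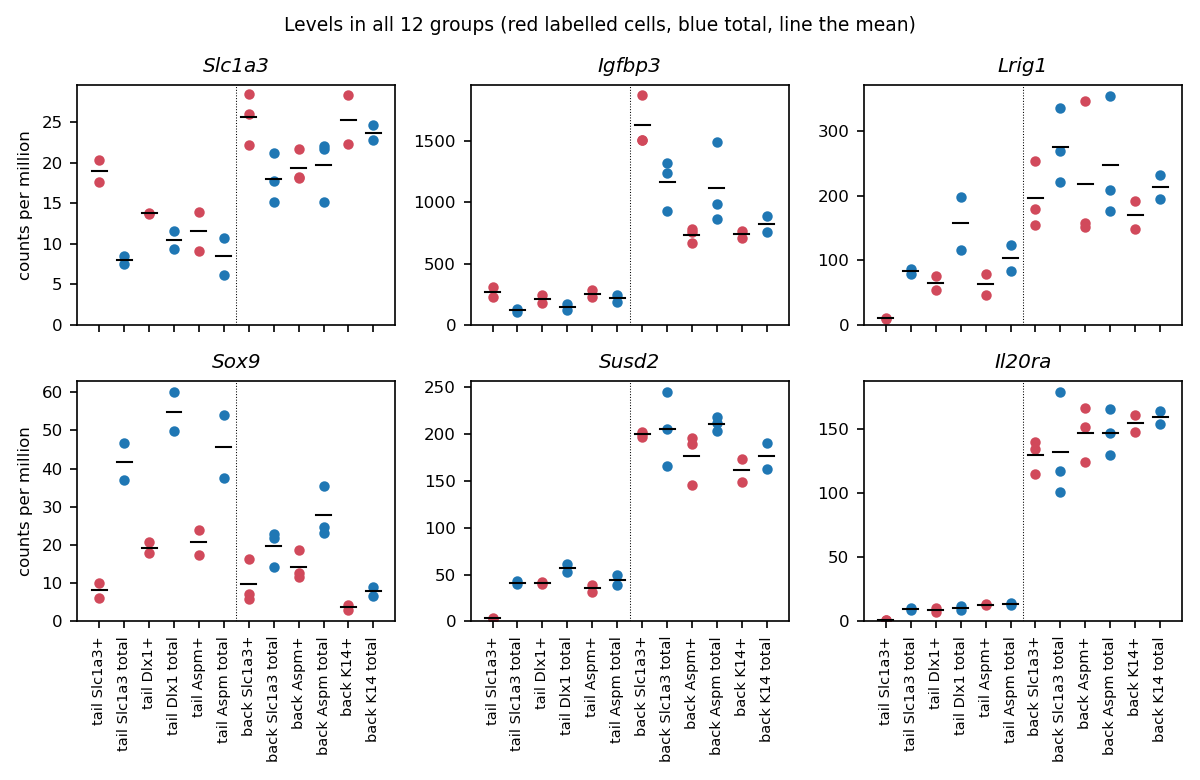
Levels in CPM (vertical axes, from 0) of 6 genes in all 12 groups of the series, with 1 point per library, red for marked cells and blue for total, and a line at the mean, tail groups left of the dotted line and back groups right of it. Tail Slc1a3+ cells hold the lowest Lrig1, Susd2 and Il20ra of all 12 groups, and among the tail groups the highest mean of Slc1a3.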

How the data were processed

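RNA-seq was analysed for 28 libraries of mouse epidermis in 12 groups. The comparison described here used the 2 libraries of tail Slc1a3+ cells and the 2 of tail total IFE from the Slc1a3CreER line, chosen by label. Per the labels' protocols, RNA was taken with TRIzol, selected for poly(A) and made into libraries with a kit that does not keep strand. The submitters' processing notes name Trim Galore 0.6.0, cutadapt, FastQC, STAR 2.7.0e, DESeq2 1.26.0 and GRCm38 (mm10), and the counting program, annotation and strand setting are not given in the sources used here. The authors deposited whole-number read counts per gene, not normalized, for 55536 gene identifiers, all of which matched the GENCODE M21 annotation of GRCm38, and 33440 had a count in at least 1 library. Replicates of a group differed by more than sampling noise, with a chi-square of 26.7 per gene in Slc1a3+ cells and 38.6 in total.

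Counts were scaled by TMM and tested with edgeR 4.0.16 (R 4.3.3; quasi-likelihood, robust) in 1 model of all 12 groups. It used the 17493 genes kept by filterByExpr with a minimum count of 10. The residual degrees of freedom were 16 and the common biological coefficient of variation was 0.28. Differences between populations were contrasts of 2 changes in the same model, and the 3 such contrasts share the 4 tail Slc1a3 libraries. P-values were adjusted by Benjamini and Hochberg over all genes tested in each contrast. CPM are TMM-scaled, and the SE was derived from the quasi-likelihood F statistic.

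The labels number the replicates of marked and total libraries alike. Deviations of same-numbered libraries from their group means were correlated in all 14 pairs (r from 0.18 to 0.689 over 10376 genes, and 0.51 in the tail Slc1a3 pairs), so the numbers were taken to pair the libraries, a reading that comes from the data and not from the labels. Where a line has 2 replicates, as in the tail, its 2 pairs share 1 value of r by construction, so the tail Slc1a3 libraries alone could not have shown the pairing. The paired fit had 1 term per pair, 8 residual degrees of freedom and a coefficient of variation of 0.185. On simulated counts for this comparison (17100 genes, 50 changed at each fold), the unpaired fit recovered 1, 23, 43 and 47 at 1.5-fold, 2-fold, 4-fold and 8-fold, with 8 false among 122 calls, and the paired fit 0, 19, 39 and 46, with 6 false among 110. The simulated counts used the unpaired fit's spread and held no pair effect, so they cannot show how the paired fit performs on these libraries. Only genes above a minimum mean level in tail total were changed.

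Alternatives were DESeq2 1.42.0's test and size factors, library totals, no low-count filter, fits of fewer libraries, the paired fit, and leaving out each of the 4 libraries. The members and gene lists were chosen with earlier results of these data known. Genes were named by a rule: the drivers, Krt14, Gt(ROSA)26Sor, Lrig1 and Sox9; the 20 largest falls and 10 largest rises among genes that passed, did not overlap and reached 5 CPM; the 10 largest paired rises; per list up to 4 genes that passed and the 3 of highest level; and the 6 largest differences each way. Other genes are marked where they appear or were named, after their values were seen, for a count of 9 or fewer. Promoters came from RefSeq tables of GRCm38.p6, and 66 of the 87 genes that fell had an entry. Figures were drawn with matplotlib 3.10.9.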

Additional observations from a re-analysis of the deposited data

Results flagged for a closer look

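The change in tail Slc1a3+ cells differed from the change in at least 1 other marked population, by a test of the difference itself, for 17 genes. All differences are log2, tail Slc1a3 minus the other, and the 3 tests share the 4 tail Slc1a3 libraries, so they are not independent of each other. Under every alternative tried, only Susd2, Il20ra and Krt80 kept all their differences and Rasgrp1 its difference from the back. Each of the other differences below was lost under at least 2 alternatives, that of Rasgrp1 from tail Aspm+ cells under 7.

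Susd2 differed from all 3 populations, by -3.12 from tail Dlx1+ cells, -3.26 from tail Aspm+ cells and -3.55 from back Slc1a3+ cells. Il20ra did so by -3.10, -3.31 and -3.34 in the same order. Krt80 did so by -1.76, -1.79 and -1.96 (adjusted p = 4.82e-05 for the back). Col23a1 differed by -2.44 from tail Dlx1+ and -2.54 from tail Aspm+ cells. Rasgrp1 differed by -3.57 from tail Aspm+ cells (adjusted p = 0.0411) and -4.29 from back Slc1a3+ cells, and Man1a, an enzyme that trims mannose from glycoproteins, by -2.66 and -2.42. Adh7, the retinol-oxidising dehydrogenase, differed from tail Aspm+ cells by -2.29 (SE 0.421, adjusted p = 0.0411) and from back Slc1a3+ cells by -2.29 (SE 0.385, adjusted p = 0.00816), and Aspm+ cells held 219.6 CPM (SD 41.6, n = 2) beside 308 (SD 59.1, n = 2) in their total.

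The other differences were from back Slc1a3+ cells. Epb41l2 differed by -2.36 (adjusted p = 0.0136), Il34 by -1.59 (adjusted p = 0.0219), Ptger4 by -1.90, Atp10a by -1.97, Arhgap44 by -2.37 and Zfp365, a zinc finger protein named after its value was seen, by -2.16. Dach1, a transcriptional repressor, differed by -3.86 (SE 0.663), with 0 and 0.237 CPM against 1.17 and 1.73 CPM in the tail (Slc1a3+ against total) and 39.6 CPM (SD 5.75, n = 3) against 32.7 (SD 9.40, n = 3) in the back. Srgap1 differed by -3.31, and Clca3a2 by -2.86, at 1875 CPM (SD 44.8) in back Slc1a3+ cells and 1715 (SD 563) in their total. Aqp3, the water and glycerol channel of basal keratinocytes, was the only one of the genes that passed unpaired with a difference above 0, 1.47 (SE 0.220, adjusted p = 0.00229). It measured 1870 and 1605 CPM against 1760 and 1490 CPM in the tail, with overlapping fractions, and 43.7 CPM (SD 5.92) against 113 (SD 11.5) in the back. With 2 or 3 libraries a group, no test for a single outlying library could be made.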

How the results depend on the processing

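The tail Slc1a3 comparison, with 90 calls, gave 195 with DESeq2's test, 276 with no low-count filter, 193 with the tail libraries alone, 261 with the replicate block and 523 with the block and without the back Slc1a3 total library of few genes (replicate 4). It gave from 29 to 51 when 1 of the 4 libraries was left out. It stayed within 1.5 times of 90 with DESeq2's size factors, with library totals, with the 4 libraries alone and without the library of few genes. The difference from tail Dlx1+ cells, with 4 calls, gave 17, 39, 9, 18 and 47 in the same order of settings, 10 with the compared groups alone, and from 3 to 6 without 1 library. The difference from tail Aspm+ cells, with 7 calls, gave 21, 49, 21, 35 and 81, 14 with the compared groups alone, and from 3 to 6 without 1 library. The difference from back Slc1a3+ cells, with 16 calls, gave 52 with DESeq2's test, 135 with no filter, 83 with the replicate block, 136 with the block and without the library of few genes, 7 with the compared groups alone, and from 7 to 13 without 1 library. The cause of these moves was not tested, apart from the larger number of genes tested with no filter. No named gene that passed changed sign under any of the 13 alternatives. Of those that did not pass, Krt84 turned negative without Slc1a3+ replicate 2 or total replicate 1 and ran from -0.146 to 0.732 when 1 library was left out. Mki67 turned positive without total replicate 2 and ran from -0.693 to 0.229. Aqp3 turned negative without Slc1a3+ replicate 1 or total replicate 2 and ran from -0.0293 to 0.251. Cd207 turned negative with library totals (-0.0111) and without Slc1a3+ replicate 1 or total replicate 2, and ran from -0.569 to 1.03. With 2 libraries a group, the simulation shows that the unpaired fit misses most changes of 2-fold or less, and genes under 5 CPM carry few counts.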

Other observations

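Several of the lost genes differ by site in whole epidermis. This was read by setting 3 back totals of the Aspm line, which are in no comparison above, against the 2 tail totals of the same line, which are also the total side of the tail Aspm+ comparison, with edgeR, a comparison added after the values were seen. Of the 87 genes that fell in tail Slc1a3+ cells, 43 were higher in back total (11.8% of all genes tested were) and 18 were higher in tail total (11.2% of all), and the median log2 difference of back over tail was 0.78 beside 0.016 over all genes. Of the 24 genes that rose paired, 12 were also higher in back total and 6 in tail total, with a median of 0.91. Higher levels in the back were thus not particular to the genes that fell. Clca3a2 was at 1780 CPM (SD 591, n = 3) in back total and 20.3 (SD 0.306, n = 2) in tail total. Rasgrp1 was at 110.0 (SD 41.3) and 10.8 CPM (SD 2.13), Il20ra at 147 (SD 18) and 13.6 CPM (SD 1.51), and Susd2 at 211 (SD 7.61) and 44.4 CPM (SD 7.77), in the same order of back and tail.

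Other losses lay on the side of the tail. Stra6 was at 0.842 CPM (SD 0.191) in back total and 62.7 (SD 34.6) in tail total, and Krt6a at 3.46 (SD 1.54) and 110.2 CPM (SD 30.4). Dpysl3 was at 7.62 (SD 1.58) and 88.4 CPM (SD 32), and Krt7 at 6.81 (SD 3.37) and 59.3 CPM (SD 8.44). The log2 differences of these 4, back over tail, ran from -6.23 to -3.10. Igfbp3, which rose in tail Slc1a3+ cells, was at 1113 CPM (SD 334) in back total and 216 (SD 35.3) in tail total, a log2 difference of 2.37. The genes in this and the preceding paragraph were chosen after their values were seen.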
